A study of Mus musculus with 4 samples.

Results

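The cells described here are cushion mesenchyme of the embryonic mouse heart that carried transcripts of the cartilage collagen type IX, 2452 of the 45551 cell barcodes in the 4 libraries. They were chosen by their own counts of unique molecular identifiers (UMIs, 1 for each captured transcript). A member had 1000 to 7000 genes, at most 10% mitochondrial UMIs, less than 0.5% of UMIs from the cardiomyocyte genes *Tnnt2*, *Actc1*, *Tnnc1* and *Ttn*, at most 1 UMI of the endothelial genes *Pecam1*, *Cdh5*, *Emcn* and *Egfl7*, and less than 0.3% from *Eln* and *Fbln5*. It also had at least 3 UMIs of *Sox9*, *Lum*, *Cthrc1* and *Papss2*, more than of *Tcf21*, *Pid1*, *Hpse2* and *Lsp1*, and at least 2 UMIs of *Col9a1* and *Col9a3*. Control replicate 1 gave 674 members, control replicate 2 gave 796, *Ets1* eKO replicate 1 gave 533 and *Ets1* eKO replicate 2 gave 449. They are called Col9-positive cushion cells below. The 2220 barcodes that met every limit but had 0 or 1 UMI of *Col9a1* and *Col9a3* are called Col9-low cushion cells, and 2457 barcodes with the fibroblast genes *Tcf21*, *Pid1*, *Hpse2* and *Lsp1* in place of the cushion genes are called Tcf21-type cells.

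Single-cell 3′ RNA sequencing was done on dissociated E14.5 ventricles, to ask what loss of the transcription factor ETS1 from endothelium does to the developing heart. The 2 control libraries came from Tie2Cre;*Ets1* fl/+ embryos and the 2 *Ets1* eKO libraries from Tie2Cre;*Ets1* fl/fl embryos, all untreated, on a C57BL/6 background, and each from the pooled ventricles of 3 embryos. Both groups thus carry Cre and a floxed allele, and the controls can keep 1 intact copy of *Ets1* in recombined cells. Tie2Cre is active in endothelium, endocardium and blood lineages, so a mesenchymal cell is expected to carry the deletion only if it descends from them, and the libraries do not record descent. Members had medians of 6728.5 and 6917 UMIs in the control libraries and 6581 and 4323 in *Ets1* eKO, and the summed member UMIs ranged from 2104904 to 5879408 per library. The embryos were of both sexes, unselected. Control replicate 1 held 558 members with Y-linked UMIs and none with *Xist* alone, and *Ets1* eKO replicate 2 held 393 with *Xist* and 1 with Y-linked UMIs alone. The other pair of libraries held both sexes, so sex and genotype are partly mixed, and levels within each sex are given for the leading genes after the comparisons. Between 19 and 47 barcode sequences were shared by any 2 libraries, and 1 of them was a member in both.

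Heart valves and part of the septum arise from the endocardial cushions, swellings of matrix that fill with mesenchyme when endocardial cells lose their junctions and migrate inward. Cushion cells turn on SOX9, a transcription factor that also directs cartilage formation, and deposit matrix shared with cartilage, such as collagens II and IX, link protein and sulfated proteoglycans. Tenascin C, elastin and periostin mark the more fibrous parts of the same tissue, and signals of the BMP, TGF-beta, Wnt and FGF families set the balance between them.

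The chosen cells carried a partial cartilage programme. *Col9a1* and *Col9a3*, chains of collagen IX, stood at 281 to 358 and 293 to 396 CPM (UMIs of the gene per 1000000 member UMIs of a library, not scaled by gene length). *Sox9* stood at 387 to 554 CPM and *Papss2*, which makes the sulfate donor for proteoglycans, at 286 to 405 CPM. These 4 genes helped to choose the cells, so their levels are descriptive. Of the 31 cartilage genes listed, 19 had enough counts for a test, and the members outside the rule included *Hapln1* (link protein) at 170 to 316 CPM, *Matn4* (a matrilin) at 105 to 144, *Col2a1* (collagen II) at 76.4 to 136, *Col9a2* at 59.3 to 88.2 and *Col11a1* at 47.0 to 86.7. In contrast, *Acan*, the large proteoglycan of mature cartilage, reached at most 3.21 CPM, *Comp* at most 1.20 and *Snorc* at most 0.26, and *Matn1* and *Ibsp* were at 0 UMIs in all 4 libraries. Of the tendon and ligament genes *Tnmd* was also at 0, while *Scx*, a transcription factor of tendon progenitors, was at 158 and 183 CPM in the controls and at 122 and 125 in *Ets1* eKO, and the 11 genes of that list summed to 1253 and 1294 against 859 and 707 CPM, of which *Egr1*, also an immediate early gene, made up 836 and 780 against 599 and 498 CPM. After each cell was thinned to 3000 UMIs, *Col2a1* was seen in 17.3% to 30.0% of members and 8.30% to 14.6% of Col9-low cells. It was seen in 0% to 0.207% of endothelial and 2.48% to 7.21% of cardiomyocyte barcodes. Unthinned, these shares were 29.0% to 44.6%, 12.6% to 22.0%, 0.679% to 0.946% and 8.90% to 21.6% in the same order. Endothelial and cardiomyocyte barcodes had medians of 6155 to 9035 and 8803 to 13774 UMIs.

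The part of markers of other cell types in the results was not tested, and the rule itself limits 4 genes each of the endothelial, cardiomyocyte and Tcf21-type lists, so low sums there follow in part from the choice of cells. The 15 endothelial markers summed to 127 and 135 CPM in the controls against 78.0 and 111 in *Ets1* eKO. The 8 neural crest and glial markers summed to 22.3 to 28.0 CPM, *Sox10* among them at 0.26 to 1.43, and the 8 epicardial markers to 24.7 to 58.0 CPM. The 15 cardiomyocyte markers summed to 1584 and 798 CPM in the controls against 1177 and 1910 in *Ets1* eKO, and *Nppa* was seen in 4.34% to 17.9% of thinned members against 25.7% to 45.5% of cardiomyocytes and 4.67% to 18.9% of endothelial barcodes. The 7 Tcf21-type markers summed to 472 to 643 CPM. The 9 erythroid markers varied most, from 735 to 5593 CPM in the controls and 1741 to 4520 in *Ets1* eKO. The 9 immune markers summed to 36.9 and 25.2 CPM in the controls against 67.9 and 80.8 in *Ets1* eKO, so their groups did not overlap. Of the 9, 7 lay wholly higher in *Ets1* eKO, against 14.8% of all genes tested. In Col9-low cells the same 9 summed to 99.8 and 69.0 CPM in the controls against 21.8 and 50.1 in *Ets1* eKO. Smooth muscle and pericyte markers, which include the rule genes *Eln* and *Fbln5*, summed to 1381 and 1347 against 950 and 867 CPM, with *Myh11* at 0.20 to 0.52.

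*Col2a1* and *Matn4*, cartilage genes outside the rule, were higher in cells with more collagen IX UMIs. Over the cushion cells with 0, 1, 2, 3 to 5 and 6 or more such UMIs, the mean level of *Col2a1* was 28.5, 60.6, 75.2, 88.4 and 145 CPM. *Matn4* stood at 45.6, 72.5, 105, 121 and 154 CPM over the same classes. *Hapln1* moved less, from 126 CPM at 0 UMIs to 239 at 6 or more. *Sox9* was nearly level from 1 UMI on, with means of 463 to 507 CPM, and *Ogn*, which encodes the small proteoglycan osteoglycin, fell away from 31.0 CPM at 0 UMIs to 4.25 at 6 or more. Just inside the threshold, at 2 UMIs, *Col2a1* was at 54.7 to 87.6 CPM per library, and just outside, at 1 UMI, at 34.2 to 74.8, so the limit cuts a continuous range. These classes share libraries and cells of different depth, and the values are descriptive.

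**Figure D1:**
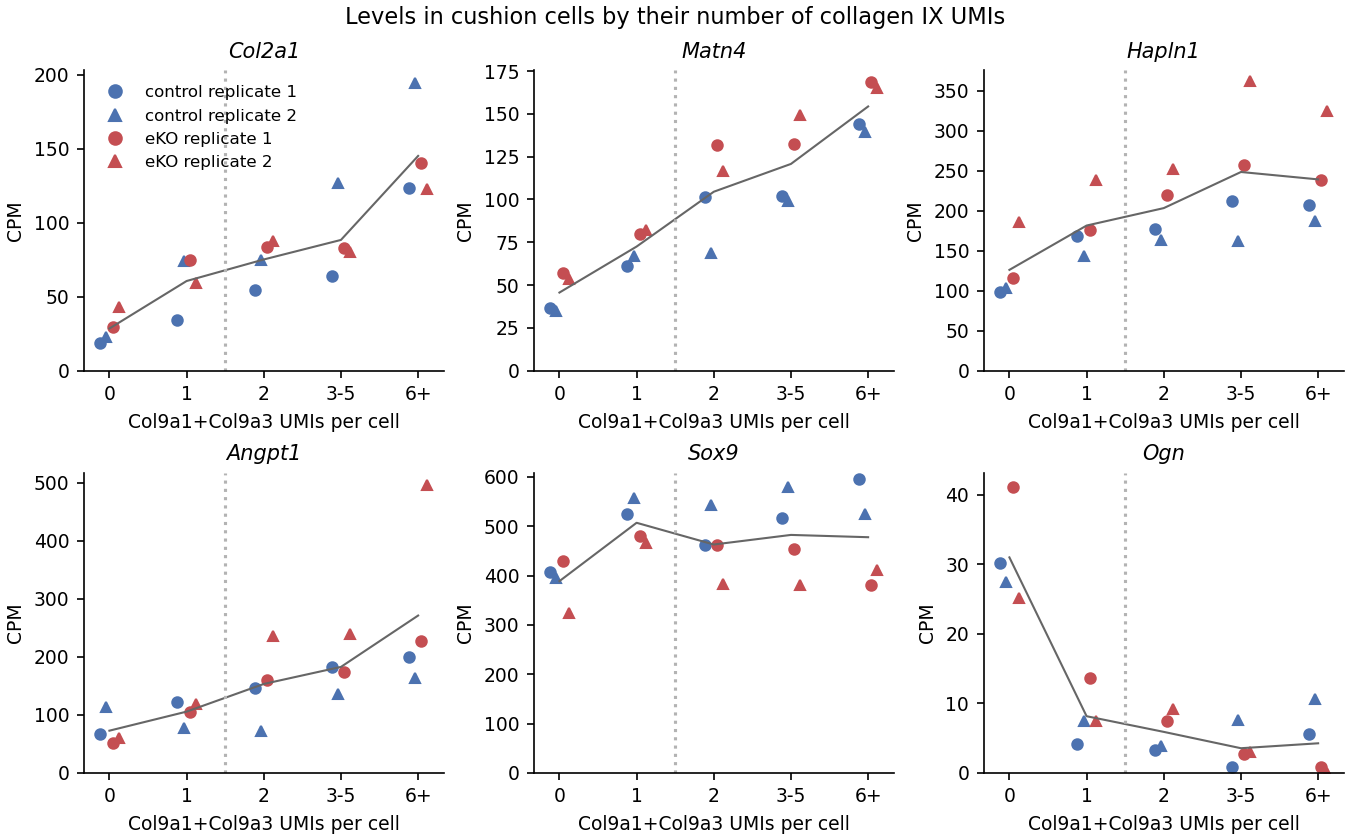
Level of 6 genes (CPM, linear axes from 0) in cushion cells grouped by their *Col9a1* and *Col9a3* UMIs per cell; points are the 4 libraries, the grey line is their mean, and the dotted line is the limit of 2 UMIs. *Col2a1* and *Matn4* are highest in the class of 6 or more UMIs, while *Sox9* stays between 323 and 595 CPM in every class and library.

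Members split on which chain was captured. Both *Col9a1* and *Col9a3* were seen in 70.8% and 71.98% of members of the controls and in 73.7% and 63.7% of *Ets1* eKO, with medians of 3, 4, 4 and 3 collagen IX UMIs. Beyond the rule genes, and among genes at 20 CPM or more, the 20 with the largest ratio over Col9-low cells were led by *Opcml* (a cell adhesion molecule, 2.78 times, 63.8 against 22.9 CPM) and *Tmem132c* (2.40 times). They held secreted factors such as *Npy* (neuropeptide Y, 2.40 times), *Wnt16* (a Wnt ligand, 2.37 times), *Angpt1* (a ligand of the endothelial receptor TIE2, 2.29 times, 194 against 84.5 CPM) and *Notum*, which inactivates Wnt proteins (2.08 times). *Col2a1* at 2.37 times and *Matn4* at 2.20 times were among them, and so was the cadherin *Cdh6* at 2.29 times. At the other end, *Ebf2* was 6.06 times and *Gucy1a1*, a subunit of the nitric oxide receptor, 5.80 times higher in Col9-low cells, and *Spon2* and *Ogn* were 5.74 and 4.73 times higher. Embryonic hemoglobins *Hba-x* and *Hbb-y* were also higher there, by 6.01 and 4.70 times, and hemoglobin made up 0.36% to 2.24% of UMIs of Col9-low cells against 0.07% to 0.55% in members. These ratios pool both groups, and some differ between them: *Npy* was at 58.6 CPM in members and 13.6 in Col9-low cells of the controls and at 53.2 and 33.0 in *Ets1* eKO, and *Angpt1* at 154 and 92.7 in the controls and at 234 and 76.3 in *Ets1* eKO. A class cut by counts of these same cells differs by construction, and no test was made of it.

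*Ets1* itself was 2.06-fold lower in *Ets1* eKO members by the group means of CPM. Log2 fold changes come from the edgeR fit, which scales the libraries further, so they can differ from such ratios. The gene (ENSMUSG00000032035, chr9:32636221-32757820) stood at 89.0 and 78.4 CPM in the controls and at 42.9 and 38.5 CPM in *Ets1* eKO, a log2 fold change of -0.94 (SE 0.15, adjusted p = 0.0383, edgeR quasi-likelihood test, 2 libraries a group, as in the tests below unless said otherwise). Both *Ets1* eKO libraries lay below both controls. Thinned members with an *Ets1* UMI made up 20.8% and 16.2% in the controls against 13.2% and 9.76% in *Ets1* eKO, against 2.46% to 3.67% of cardiomyocyte barcodes. In endothelial barcodes *Ets1* was at 310 and 276 CPM in the controls and at 140 and 101 CPM in *Ets1* eKO. Reads from the 3′ end count transcripts whether or not an exon is missing, so these levels cannot give the share of cells with the deletion. When the rule was applied after thinning, the difference was -0.60 with an adjusted p of 0.302 in edgeR. Of the other 16 ETS family genes tested, none passed the threshold in edgeR. DESeq2 called 1 of the 17, which was *Ets1*, where it called 93 of 13138 genes in all. In edgeR 5 of the 17 had an unadjusted p under 0.05, as did 1638 of all 12732 genes tested. *Fli1*, the neighbour of *Ets1*, was at 139 and 130 against 128 and 105 CPM.

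The largest increase lay next to *Ets1*. The long noncoding RNA gene *Gm3331* (ENSMUSG00000099148, chr9:32813734-32834104) starts 55913 bases after the annotated end of *Ets1*, on the same strand (GENCODE vM21, GRCm38). It gave 2 UMIs in each control library and 62 and 35 in the *Ets1* eKO libraries, which is 0.40 and 0.34 against 16.1 and 16.6 CPM. Over the summed counts this is 44.3 times (95% interval 16.8 to 166 for counting error only), and the test gave an adjusted p of 0.00128 (edgeR). Col9-low cells had 0.29 and 0 against 14.3 and 13.3 CPM, while Tcf21-type cells had 0.79 and 0 against 0.76 and 1.497 CPM.

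The share of cushion cells that were Col9-positive lay between 31.6% and 34.7% in the 4 libraries at 3000 UMIs per cell. With each cushion cell thinned to 3000 UMIs, 31.6% (363 of 1147) and 34.7% (451 of 1298) were Col9-positive in the controls, and 31.6% (299 of 945) and 31.9% (260 of 816) in *Ets1* eKO. The means differed by -1.45 percentage points (33.2% ± 2.19 and 31.8% ± 0.16, SD, n = 2 each, two-sided exact permutation p = 0.667, where the smallest possible is 0.3333). Without thinning the shares were 57.1%, 59.9%, 53.8% and 38.3%, the last from the shallowest library, and 357 of its cells had fewer than 3000 UMIs. Thinned to 2000 UMIs, which left out 64 cells of that library, control shares of 20.8% and 22.1% stood against 20.6% and 19.2%, with *Ets1* eKO lower in both libraries (exact permutation p = 0.3333). As a share of all barcodes kept on genes and mitochondrial UMIs, members by the thinned rule made up 3.59% and 6.78% in the controls against 3.67% and 2.23% in *Ets1* eKO (exact permutation p = 0.667, n = 2 a group), so the groups overlapped at 3000 UMIs. They did not overlap at 2000 UMIs (2.02% and 3.61% against 1.89% and 1.504%), with all UMIs (7.30% and 12.8% against 6.93% and 3.68%) or without the highest doublet scores (4.03% and 7.21% against 4.01% and 2.58%), each with *Ets1* eKO lower and an exact permutation p = 0.3333.

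**Figure D2:**
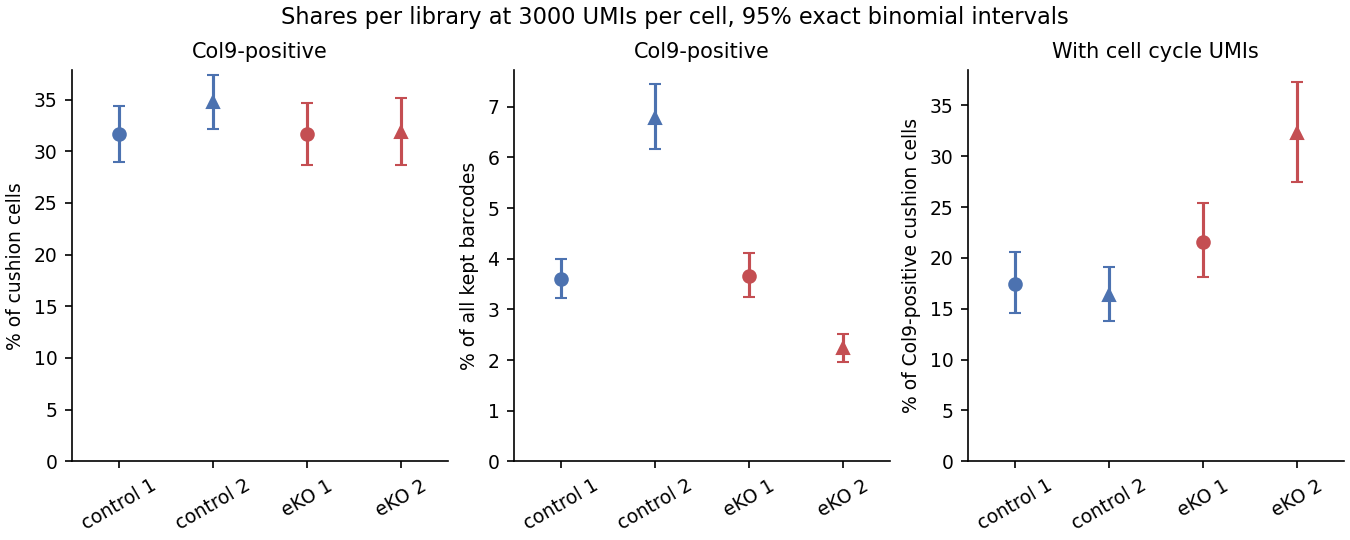
Shares per library at 3000 UMIs per cell with exact 95% binomial intervals, which cover counting error only; left, Col9-positive among cushion cells, centre, Col9-positive cushion cells among all kept barcodes, right, members with at least 2 cell cycle UMIs. The left shares lie between 31.6% and 34.7%, and on the right both *Ets1* eKO libraries (21.6% and 32.2%) lie above both controls (17.4% and 16.3%).

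Between *Ets1* eKO and control members, 37 genes fell and 15 rose. They are 0.291% and 0.118% of the 12732 genes tested (edgeR, adjusted p at most 0.05), and 52 is 0.408% in all. Among genes at 10 CPM or more, those that fell were led by *Penk*, *Prdm6*, *Ntrk3* and *Sfrp2*, and those that rose by *Sbspon*, a secreted protein with somatomedin B and thrombospondin repeats (5.41 and 4.76 against 15.3 and 16.6 CPM), and *Frmd5* (5.61 and 6.80 against 18.2 and 17.1). *Eln*, 1 of those that fell, was limited by the rule, so its levels are given and its tests are not read as results. In all 52 both *Ets1* eKO libraries lay on the same side of both controls. Of all genes tested, 31.6% lay wholly lower and 14.8% wholly higher in *Ets1* eKO. With the rule applied after thinning 25 genes fell and 23 rose (edgeR), so the excess of genes that fell depended on the processing. Of the 52 genes, 29 passed in that fit. A number of genes named below fell outside the fixed rule for named genes and were chosen after their values were seen: *Isl1*, *Piezo2*, *Igfbp5*, *Egfr*, *Sema3a*, *Chst2*, *Nusap1*, *Prc1*, *Kcnb2*, *Grik2*, *Stac*, *Islr*, *Cntn4*, *Cenpf* and the other cell cycle genes, *Tyrobp*, *Fcer1g*, *Lyz2* and *Gm3331*. The cartilage, tendon and cell type genes named at or near 0 were likewise picked for their levels.

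*Sfrp2* (ENSMUSG00000027996, chr3:83766321-83774316), which encodes a secreted protein that binds Wnt ligands, was at 373 and 592 CPM in the controls and at 96.0 and 70.3 CPM in *Ets1* eKO (5.80 times between the group means). Its log2 fold change was -2.43 (SE 0.24, adjusted p = 0.00580, edgeR). *Penk* (ENSMUSG00000045573, chr4:4133531-4138819), the precursor of enkephalin peptides, was at 26.3 and 32.5 against 2.60 and 2.85 CPM, a log2 fold change of -3.35 (SE 0.28, adjusted p = 0.00178, edgeR). For both genes the lower control was still above the higher *Ets1* eKO library. *Bmp4*, a BMP ligand that acts on cushion formation in the outflow tract, was at 40.3 and 53.2 against 20.3 and 15.2 CPM (adjusted p = 0.0383, edgeR). The *Bmp4* call passed in 13 of 18 alternatives. In members with fewer than 2 cell cycle UMIs its log2 fold change was -1.08 (adjusted p = 0.184, edgeR), against -1.28 in all members. *Sema3a*, a secreted guidance cue, was at 20.2 and 26.4 against 6.76 and 8.55 CPM. *Igfbp5*, which binds insulin-like growth factors, was at 184 and 331 against 91.3 and 70.8 CPM. *Egfr*, the EGF receptor known to limit semilunar valve growth, was at 77.2 and 96.1 against 34.3 and 37.1 CPM, and *Ntrk3*, the neurotrophin-3 receptor, at 18.4 and 31.3 against 4.16 and 1.90 CPM.

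*Tnc* (ENSMUSG00000028364, chr4:63959785-64047015), tenascin C of fibrous and remodelling matrix, was at 158 and 229 CPM in the controls and at 49.2 and 28.5 CPM in *Ets1* eKO, a log2 fold change of -2.18 (SE 0.25, adjusted p = 0.0115, edgeR). *Adamts5*, a protease that cleaves versican and aggrecan, was at 22.5 and 35.9 against 8.32 and 9.03 CPM. *Sulf2*, which removes sulfate from heparan sulfate at the cell surface, was at 62.5 and 88.6 against 30.2 and 31.4 CPM, and *Chst2*, a sulfotransferase, at 37.1 and 33.3 against 14.3 and 13.8 CPM. In each of these 4 genes the groups did not overlap. *Eln*, limited by the rule to a low level, was at 336 and 403 against 184 and 148 CPM.

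Of 41 cartilage and cushion regulators tested, 1 rose and none fell (edgeR), where 0.118% of all genes rose and 0.291% fell. Of the 41, 30 had a negative log2 fold change (median -0.14). Wholly lower in *Ets1* eKO were 23 and wholly higher 5, against 31.6% and 14.8% of all genes tested. *Tbx3*, a T-box factor, was at 30.7 and 28.2 CPM in the controls and at 48.6 and 64.1 in *Ets1* eKO (log2 fold change 1.00, SE 0.17, adjusted p = 0.0462, edgeR). This call passed in 10 of 18 alternatives, with adjusted p up to 0.105 (edgeR). It was lost with total count scaling and in members with fewer than 2 cell cycle UMIs, where the log2 fold change was 0.92 and 1.04. Without control replicate 2 the log2 fold change of *Tbx3* was 0.92. *Isl1*, a factor of second heart field progenitors, gave 127 UMIs in the controls (7.82 and 15.0 CPM) and 1 in *Ets1* eKO. That ratio is 69.5 with a counting interval of 12.3 to 2767 (adjusted p = 0.0245, edgeR). *Prdm6*, a factor of the smooth muscle lineage, was at 21.8 and 48.3 against 4.16 and 4.28 CPM, and *Nr4a1*, an immediate early gene, at 57.1 and 46.1 against 23.7 and 21.9 CPM. The other 20 stress and immediate early genes tested did not pass the threshold in edgeR. DESeq2 called 2 of the 21 as lower, where it called 61 of 13138 genes as lower over all. Of the 21, 13 lay wholly lower in *Ets1* eKO, against 31.6% of all genes tested. The summed level of the 21 was 19826 and 18816 against 15516 and 15393 CPM. The part of dissociation or RNA quality in this was not tested.

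*Piezo2*, a stretch-gated channel, was at 185 and 190 CPM in the controls and at 81.2 and 65.1 in *Ets1* eKO (log2 fold change -1.26, SE 0.15, adjusted p = 0.0144, edgeR), and the kainate receptor gene *Grik2* at 31.9 and 31.3 against 8.32 and 8.55. *Stac*, an adaptor of calcium channels, gave 96 UMIs in the controls and 4 in *Ets1* eKO. *Kcnb2*, a voltage-gated potassium channel, rose, at 67.2 and 63.8 against 127 and 128 CPM (log2 fold change 1.04, SE 0.13, adjusted p = 0.0168, edgeR). *Grm7*, a glutamate receptor, was at 212 and 179 against 345 and 446 CPM. *Adam23*, an adhesion protein, was at 21.4 and 17.5 against 49.9 and 40.9 CPM, and *Cdo1*, a cysteine dioxygenase, at 25.1 and 21.1 against 43.7 and 59.9. *Prr16* had the smallest p of all genes that fell, at 101 and 111 against 23.9 and 27.1 CPM (log2 fold change -1.99, SE 0.15, adjusted p = 0.00128, edgeR).

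**Figure D3:**
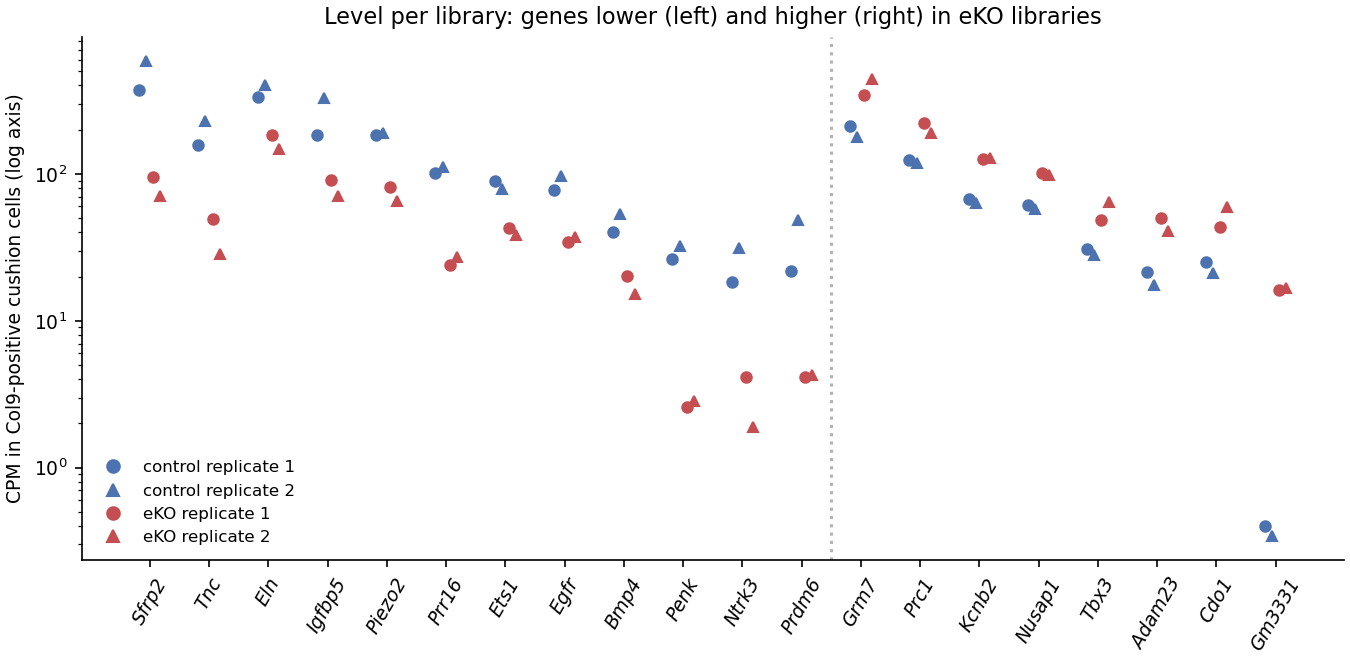
Level of 20 genes in Col9-positive cushion cells of each library (CPM, log axis), 12 that are lower in *Ets1* eKO on the left and 8 that are higher on the right; circles are replicate 1 and triangles replicate 2. The red *Ets1* eKO points lie on one side of the blue control points for every gene drawn, furthest for *Gm3331* (0.40 and 0.34 against 16.1 and 16.6 CPM).

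Read as whole lists, most genes did not pass the threshold, and the median change of all genes tested was 0.01 (log2). In simulated counts, edgeR recovered 2 of 200 genes changed by 0.5 (log2) and 114 of 200 changed by 1. A gene that did not pass is thus not shown to be unchanged. None of the 19 cartilage genes passed in edgeR or DESeq2, where 8 had an unadjusted p under 0.05 in edgeR, with a list median of -0.06. Over all genes, 1638 of 12732 had such a p. *Hapln1* was at 202 and 170 against 243 and 316 CPM (adjusted p = 0.153, edgeR), and *Col2a1* at 76.4 and 136 against 101 and 90.3 CPM. Of 40 valve and fibrous matrix genes 1 fell (*Tnc*) and none rose, with a median of 0.04; *Mgp*, an inhibitor of calcification, was at 1763 and 1655 against 2531 and 2105 CPM (adjusted p = 0.247, edgeR), and *Vcan*, versican, at 1668 and 1746 against 1812 and 1786. None of 34 collagen folding and secretion genes passed (median -0.08), 1 of 23 matrix turnover genes fell (*Adamts5*, median -0.20) and 1 of 37 glycosaminoglycan genes fell (*Sulf2*, median -0.15). Of 6 tendon and ligament genes tested 1 fell, again *Tnc*, and all 6 had a negative log2 fold change (median -0.45). Of these 6, 5 lay wholly lower in *Ets1* eKO, against 31.6% of all genes. The same tally was 18 of 30 BMP, 15 of 23 TGF-beta, 13 of 23 matrix turnover and 10 of 19 FGF, PTHrP and hedgehog genes. It was 6 of 19 cartilage, 11 of 40 valve and fibrous matrix, 15 of 34 collagen folding, 16 of 37 glycosaminoglycan and 13 of 31 Wnt genes. In the signalling lists, 1 of 30 BMP genes fell (*Bmp4*, median -0.21) and 1 of 31 Wnt genes (*Sfrp2*, median 0.03), while none of 23 TGF-beta and none of 19 FGF, PTHrP and hedgehog genes passed (medians -0.20 and -0.21). The unadjusted p in edgeR was under 0.05 for 17 of the Wnt, 13 of the BMP, 9 of the TGF-beta, 4 of the FGF, PTHrP and hedgehog, 9 of the collagen folding, 12 of the valve and fibrous matrix, 6 of the matrix turnover, 9 of the glycosaminoglycan, 3 of the tendon and ligament and 13 of the 41 regulator genes. DESeq2 called 3 valve and fibrous matrix, 2 matrix turnover, 2 TGF-beta, 1 glycosaminoglycan, 1 BMP, 1 tendon and ligament and 1 Wnt gene as lower. It called 1 Wnt and 1 regulator gene as higher, and none of the collagen folding or the FGF, PTHrP and hedgehog genes. Over all genes DESeq2 called 61 of 13138 as lower and 32 as higher. With sex as a term, where 0.729% of 11104 genes rose and 1.14% fell (edgeR), 1 cartilage gene and 1 collagen folding gene rose, 3 matrix turnover and 3 glycosaminoglycan genes fell, and of the valve and fibrous matrix genes 1 rose and 3 fell. In the same fit 4 BMP, 2 TGF-beta and 1 of the FGF, PTHrP and hedgehog genes fell, and of the Wnt genes 2 rose and 2 fell. *Tgfb2*, the TGF-beta ligand of cushion myocardium and mesenchyme, was at 316 and 454 against 205 and 169 CPM with an adjusted p of 0.0855 (edgeR), and *Gli3*, a hedgehog effector, at 236 and 288 against 168 and 162 (adjusted p = 0.148).

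Several genes that fell were highest in control members with *Sfrp2* UMIs, a split chosen after the results were seen. *Sfrp2* was detected in 30.4% (202 of 665) and 48.2% (378 of 784) of thinned control members and in 14.1% (74 of 523) and 8.67% (32 of 369) of *Ets1* eKO members. Unthinned, these shares were 37.7%, 57.3%, 20.5% and 13.8%, and cardiomyocyte barcodes gave 0.388% to 1.88% after thinning. In control members with *Sfrp2* UMIs, *Tnc* was at 304 and 362 CPM, and in those without at 67.0 and 56.0. *Prr16* was at 199.97 and 172 CPM with and 39.7 and 32.5 CPM without, and *Penk* at 53.8 and 54.1 with and 9.11 and 4.31 without. Of the genes that rose, *Grm7* was at 99.2 and 108 CPM in members with *Sfrp2* UMIs and at 282 and 272 without, and *Kcnb2* at 39.2 and 35.5 with and 84.6 and 101 without. The values of *Ets1* eKO on each side of the split are given as a description. Among members with *Sfrp2* UMIs, *Tnc* was at 146 and 114 CPM in *Ets1* eKO, *Prr16* at 68.0 and 87.7, and *Grm7* at 218 and 278. Among those without, *Tnc* was at 27.4 and 16.3 CPM, *Prr16* at 14.0 and 18.5, and *Grm7* at 374 and 470. *Sfrp2* fell itself, so the change decides in part which *Ets1* eKO cells stand on each side, and these genes were picked from those already past the threshold. The split and the comparison of groups share the control cells, so they are set side by side with no test. With 109 and 62 *Ets1* eKO cells with *Sfrp2* UMIs, fewer cells of a kind and less RNA per cell cannot be told apart.

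**Figure D4:**
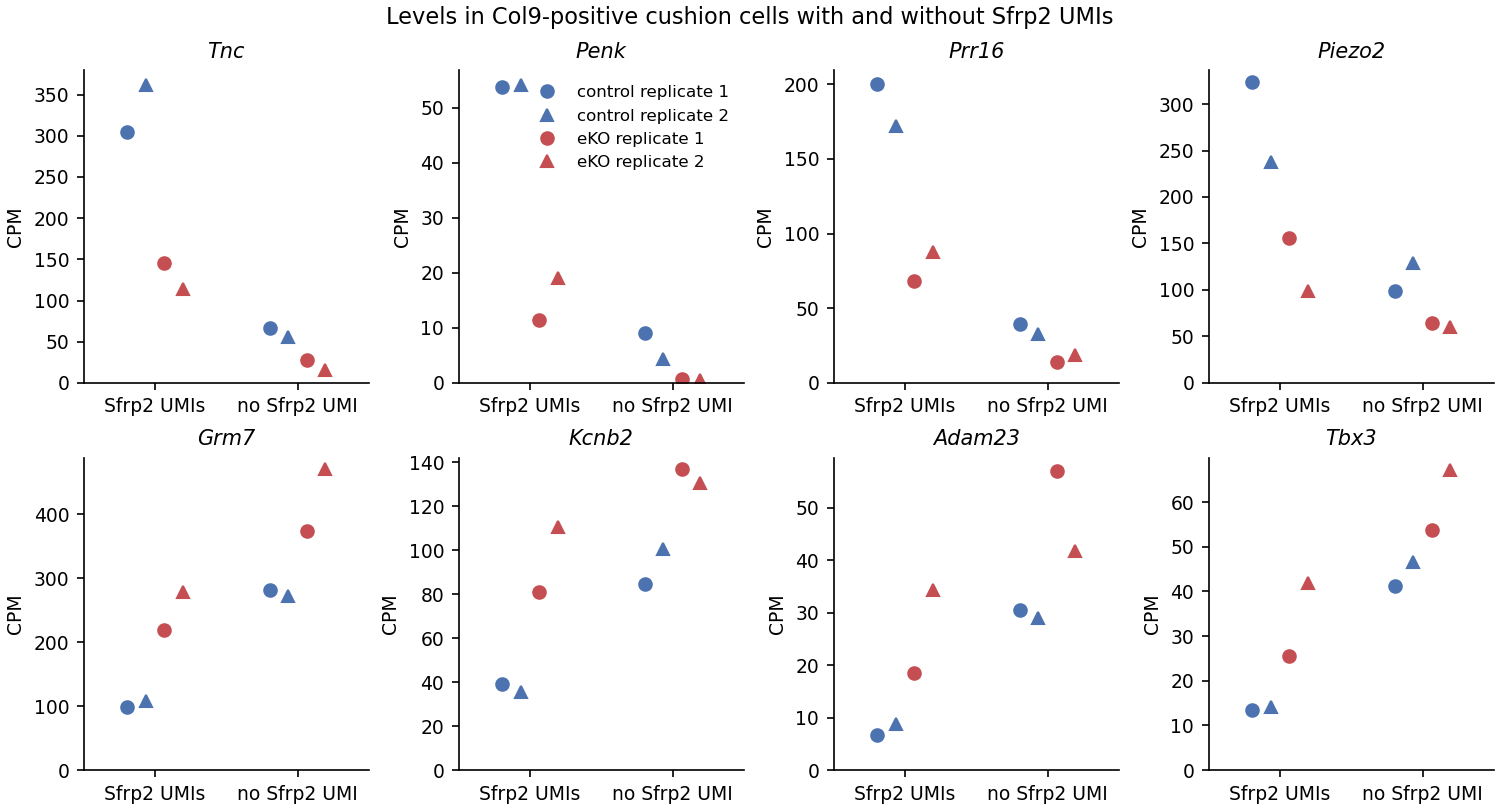
Level of 8 genes (CPM, linear axes from 0) in Col9-positive cushion cells with and without *Sfrp2* UMIs, 1 point per library. In the controls *Tnc*, *Penk*, *Prr16* and *Piezo2* are higher with *Sfrp2* UMIs and *Grm7*, *Kcnb2*, *Adam23* and *Tbx3* higher without; *Ets1* eKO points lie below the controls in the upper row and above them in the lower row with and without *Sfrp2* UMIs.

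Members with transcripts of dividing cells made up a larger share of both *Ets1* eKO libraries than of either control. At 3000 UMIs, at least 2 UMIs of *Mki67*, *Top2a*, *Cenpf*, *Cdk1* and *Ube2c* were seen in 17.4% (116 of 665) and 16.3% (128 of 784) of control members and in 21.6% (113 of 523) and 32.2% (119 of 369) of *Ets1* eKO members. The means were 16.9% ± 0.79 and 26.9% ± 7.53 (SD, n = 2 each), a difference of 10.0 percentage points with a two-sided exact permutation p = 0.3333, the smallest that 4 libraries allow. Thinning left out 80 shallower members of *Ets1* eKO replicate 2 and 9 to 12 of each other library. Without thinning the shares were 21.5%, 21.2%, 25.3% and 29.0%. Members so classed were deeper, with medians of 9779, 9501, 9259 and 6110.5 UMIs in the same order. The other members had medians of 6323, 6395, 5844.5 and 3734 UMIs. The rule counts UMIs before thinning, so depth bears on which cells are members. The part of depth in the difference was not tested. Of 35 cell cycle genes tested, none passed the threshold in edgeR, 18 had an unadjusted p under 0.05 (1638 of all 12732 genes), DESeq2 called 1, and 32 had a positive log2 fold change (median 0.42). *Cenpf*, a kinetochore protein, was at 182 and 161 against 285 and 264 CPM (adjusted p = 0.0706, edgeR). Outside the list, 2 genes of the mitotic spindle rose: *Prc1* was at 125 and 119 against 223 and 189 CPM (log2 fold change 0.84, SE 0.14, adjusted p = 0.0462, edgeR), and *Nusap1* at 61.7 and 57.8 against 102 and 98.3. With sex as a term, in a fit that counts male and female members of 1 library as separate samples, 5 of the 35 rose and none fell (adjusted p at most 0.05 in edgeR), against the shares of all genes given for that fit above. Among members with fewer than 2 cell cycle UMIs, *Prc1* had a log2 fold change of 0.75 with an adjusted p of 0.531 (edgeR), and 20 genes passed in all, 19 of them among the 52.

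The same comparison was made in Col9-low and Tcf21-type cells. Of 12076 genes tested in Col9-low cells, *Prr16* and *Cntn4* fell (0.0166%) and *Gm3331* rose (0.00828%), which is 0.0248% in all (edgeR), and none of 13162 passed in Tcf21-type cells (0%), where DESeq2 called 5 and the unadjusted p of 923 genes was under 0.05. The counts of calls do not rank the classes, since without *Ets1* eKO replicate 1 there were 334 in Col9-low cells and 293 in members. A direct test of whether the change differed between Col9-positive and Col9-low cushion cells found 77 of 12772 genes (0.603%), 34 with a higher (0.266%) and 43 with a lower change (0.337%) in the members. *Sfrp2* changed by -2.43 in members and -1.09 in Col9-low cells, where it was seen in 35.9% and 55.3% of thinned control cells and 30.1% and 21.3% of *Ets1* eKO cells, and the difference of the changes was -1.37 (adjusted p = 3.13e-11, edgeR). *Tnc* changed by -2.18 and -0.88 (difference -1.33), and *Penk* by -3.35 and -0.72 (difference -2.72). *Kcnb2* had changes of 1.04 in members and -0.11 in Col9-low cells, a difference of 1.15 (adjusted p = 6.29e-06, edgeR). Of 35 cell cycle genes 5 differed in this test and 30 did not pass. The 5, *Cenpf*, *Ube2c*, *Tpx2*, *Birc5* and *Top2a*, had log2 fold changes of 0.57 to 0.76 in members and of 0.01 to 0.17 in Col9-low cells. Of the 9 immune markers 3 differed and 6 did not pass: *Tyrobp* by 2.82, *Fcer1g* by 2.77 and *Lyz2* by 3.18. *Tyrobp* was at 6.21 and 1.70 against 13.8 and 11.9 CPM in members and at 8.34 and 16.8 against 4.64 and 7.71 in Col9-low cells. For *Prr16* (-1.99 and -1.52) and *Ets1* (-0.94 and -0.70) the difference did not pass the threshold, with adjusted p of 0.543 and 0.777 (edgeR). In Tcf21-type cells *Ets1* was at 113 and 108 CPM in the controls and at 72.2 and 71.6 in *Ets1* eKO, so the groups did not overlap there (log2 fold change -0.53, adjusted p = 0.483, edgeR).

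**Figure D5:**
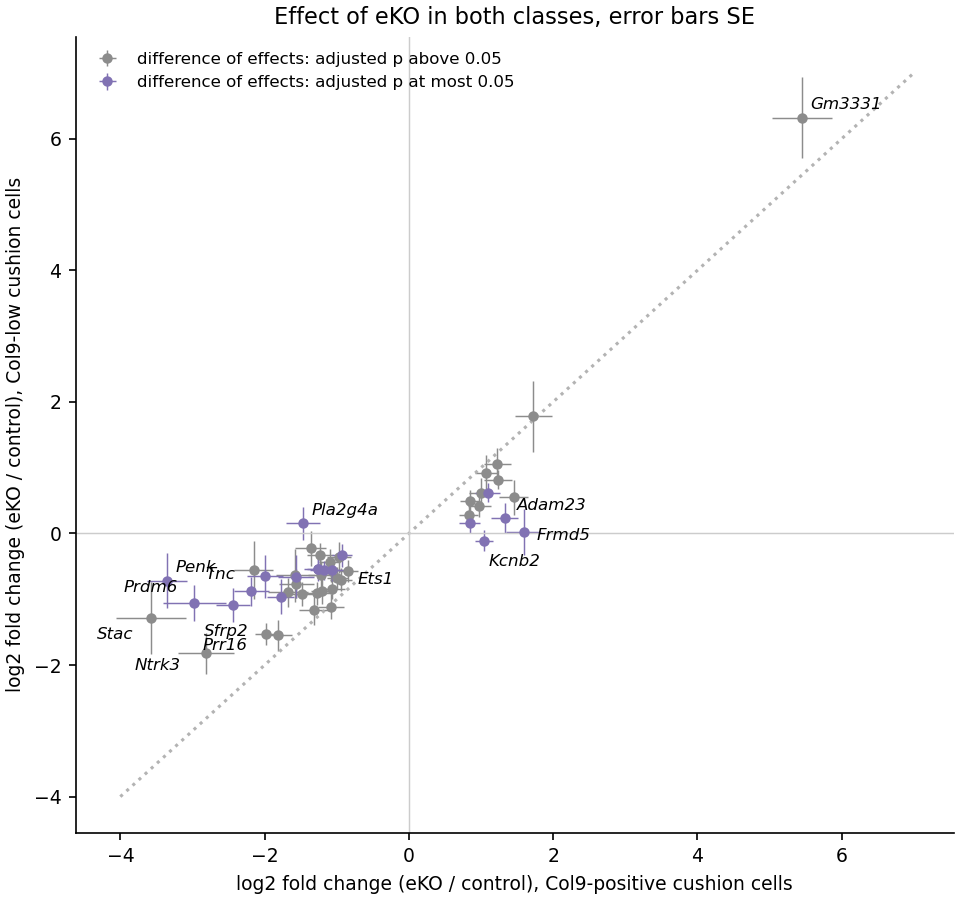
Log2 fold change of *Ets1* eKO over control in Col9-positive (horizontal) and Col9-low (vertical) cushion cells for 51 of the 52 genes past the threshold in the former (*Isl1* was not tested in the latter), with SE bars; the dotted line marks equal changes. Purple marks genes whose changes differed between both classes, such as *Sfrp2*, *Tnc*, *Penk* and *Kcnb2*. The genes were chosen for their horizontal values, so nothing is read from vertical values nearer to 0.

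Levels within each sex could be compared for female members of control replicate 2 with both *Ets1* eKO libraries, and for male members of both controls with *Ets1* eKO replicate 1. Female members had *Sfrp2* at 542 CPM in control replicate 2 and at 53.7 and 70.3 CPM in *Ets1* eKO, and male members had 390 and 630 CPM in the controls and 111 in *Ets1* eKO replicate 1. *Tnc* was at 226 CPM against 43.1 and 28.9 in females and at 160 and 229 against 46.7 in males. *Kcnb2* was at 75.1 CPM against 175 and 129 in females, and at 72.8 and 59.3 against 80.7 in males, where the gap was small. *Ets1* was at 88.1 CPM against 49.0 and 39.9 in females and at 89.0 and 70.5 against 35.4 in males. *Penk* was at 42.3 CPM against 1.18 and 3.15 in females and at 29.3 and 23.8 against 2.67 in males, and *Bmp4* at 53.6 against 18.3 and 14.7 and at 41.0 and 50.3 against 18.7. Among genes that rose, *Grm7* was at 191 CPM against 461 and 456 in females and at 207 and 169 against 291 in males, *Adam23* at 26.0 against 63.8 and 40.9 and at 22.5 and 11.2 against 34.7, and *Tbx3* at 29.7 against 45.5 and 62.5 and at 31.4 and 27.4 against 52.0. The shares with cell cycle UMIs were not split by sex. A fit with sex as a term used 6 sums, of the male or female members of the 4 libraries, so members of 1 pool counted as separate samples and its p-values are too small. In it all 52 genes kept their direction and 49 passed the threshold (edgeR). The 3 that did not were *Kcnb2*, *Adam23* and *Islr*, with adjusted p of 0.0646, 0.0573 and 0.0578, and with log2 fold changes of 0.77, 1.07 and -1.29 against 1.04, 1.33 and -1.31 without the term.

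Promoters of the genes that changed were searched for CCGGAA, the letters at the core of many sites bound by ETS factors, on both strands of the 250 bases before each annotated start (RefSeq, GRCm38.p6). Of the 37 genes that fell, 22 had an entry and 5 held the letters (22.7%), and of the 15 that rose, 9 had an entry and none held them, where 13.6% of all 27025 genes do. The matches are descriptive, and a window without them says nothing about the factor. The 5 windows are shown because these genes fell in *Ets1* eKO members and hold the letters. Capitals mark CCGGAA or its reverse complement TTCCGG, which overlap once in *Grik2*. *Bmp4* lies at chr14:46390670-46390919 (minus strand), *Egfr* at chr11:16751953-16752202 (plus), *Grik2* at chr10:49788755-49789004 (minus), *Lhfpl3*, a membrane protein gene, at chr5:22745804-22746053 (plus) and *Nr4a1* at chr15:101266596-101266845 (plus).
Bmp4: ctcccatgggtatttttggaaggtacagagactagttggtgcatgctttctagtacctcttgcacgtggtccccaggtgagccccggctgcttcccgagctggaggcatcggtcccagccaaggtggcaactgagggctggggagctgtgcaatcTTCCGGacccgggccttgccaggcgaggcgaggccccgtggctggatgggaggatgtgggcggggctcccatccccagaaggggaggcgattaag
Egfr: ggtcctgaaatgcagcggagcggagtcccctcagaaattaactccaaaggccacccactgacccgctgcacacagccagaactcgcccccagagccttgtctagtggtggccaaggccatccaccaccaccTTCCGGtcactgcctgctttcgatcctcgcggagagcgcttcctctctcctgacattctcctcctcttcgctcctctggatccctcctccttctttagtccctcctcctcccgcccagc
Grik2: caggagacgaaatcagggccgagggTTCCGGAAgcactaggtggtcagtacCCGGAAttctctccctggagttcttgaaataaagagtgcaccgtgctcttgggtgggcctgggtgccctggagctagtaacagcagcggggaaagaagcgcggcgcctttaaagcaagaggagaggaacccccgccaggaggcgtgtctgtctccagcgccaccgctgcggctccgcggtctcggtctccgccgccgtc
Lhfpl3: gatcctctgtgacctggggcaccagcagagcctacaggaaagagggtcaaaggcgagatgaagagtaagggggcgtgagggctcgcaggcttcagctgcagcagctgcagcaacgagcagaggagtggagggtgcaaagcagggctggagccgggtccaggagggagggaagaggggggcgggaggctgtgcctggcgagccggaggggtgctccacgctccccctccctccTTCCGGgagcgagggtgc
Nr4a1: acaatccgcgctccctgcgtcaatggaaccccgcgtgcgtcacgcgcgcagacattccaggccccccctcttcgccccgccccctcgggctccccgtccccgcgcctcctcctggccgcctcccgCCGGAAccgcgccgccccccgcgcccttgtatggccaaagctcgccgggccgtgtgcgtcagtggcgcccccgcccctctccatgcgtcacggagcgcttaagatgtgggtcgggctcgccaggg
In these 5 genes the members' levels were 40.3 and 53.2 against 20.3 and 15.2 CPM for *Bmp4*, 77.2 and 96.1 against 34.3 and 37.1 for *Egfr*, and 31.9 and 31.3 against 8.32 and 8.55 for *Grik2*. *Lhfpl3* was at 20.2 and 20.8 against 4.94 and 3.33 CPM and *Nr4a1* at 57.1 and 46.1 against 23.7 and 21.9.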

How the data were processed

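Cells were pooled ventricles of 3 embryos per library, captured with 10x 3′ v3.1 chemistry after trypsin dissociation. The authors deposited UMI count matrices, 1 per library, made per the labels with Cell Ranger 7.1.0 against mm10 (GRCm38), with Seurat 4.3.0 also named in the submitters' processing notes. The deposited counts are raw whole numbers per gene and barcode. Of 32285 gene rows, 32158 matched GENCODE vM21. From these counts, cells were chosen by the rule given above, and the members and gene lists were chosen with earlier results of these data known. UMIs were summed per library and class, filtered with filterByExpr, scaled by TMM and tested with the quasi-likelihood test of edgeR 4.0.16 (R 4.3.3), with Benjamini-Hochberg adjustment over all genes tested at 0.05. The difference between classes was an interaction term with library as a block. The libraries are pools of separate embryos, but p-values measure only the spread between 2 libraries a group. Shares were taken after thinning cells to 3000 UMIs, leaving out shallower cells, with exact (Clopper-Pearson) 95% binomial intervals and exact permutation tests over libraries. Endothelial barcodes had at least 10 UMIs of the endothelial rule genes, and cardiomyocyte barcodes at least 1% of UMIs of the cardiomyocyte ones. Doublets were scored against simulated doublets and kept in the reported values; 7, 22, 11 and 6 members had high scores. The scripts were tested on simulated data. Named genes were *Ets1*, the 4 markers, list members past the threshold, the most abundant members of each matrix or signalling list, the 8 largest changes in each direction at 10 CPM or more, and the genes with the largest ratios between Col9-positive and Col9-low cells. Alternatives were another scaling, no low-count filter, DESeq2 1.42.0, other limits of the rule, each library left out and a replicate block. Added after seeing the data were a term for sex, a hemoglobin limit of 2% and the libraries of both sexes alone. Members with fewer than 2 cell cycle UMIs were also added then.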

Additional observations from a re-analysis of the deposited data

Results flagged for a closer look

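The change between *Ets1* eKO and control differed between Col9-positive and Col9-low cushion cells for 25 of the 128 genes named by the rule or past the threshold, by the interaction test in edgeR, against 77 of all 12772 genes tested (0.603%). Many of the 128 were chosen for a large change in Col9-positive cells, which favours a difference in this test, so the shares are not compared. The values are the log2 fold change in Col9-positive minus that in Col9-low cells. Among secreted signals the change was lower in Col9-positive cells for *Penk* by -2.72, *Sfrp2* by -1.37, *Npy* by -1.37, *Igfbp5* by -0.93 and *Tgfb2* by -0.41. Of these, *Npy* was level in members (-0.03) and had 1.35 in Col9-low cells, where its own test gave an adjusted p of 0.117 (edgeR). The change was also lower for the matrix gene *Tnc* by -1.33 and for *Fibin* by -0.74. The values of *Eln* and *Papss2* were -0.51 and -0.39. These 2 genes served to choose the cells, so their values are given and their tests are not read as results. The counts of 25 and 77 genes include both. Other genes with a lower change were *Prdm6* by -1.92, *Piezo2* by -0.73, *Lrp1b* by -1.42, *March1* by -0.89, *Sh3bp5* by -1.18, *Pla2g4a* by -1.65, *Pcdh11x* by -0.61, *Sorbs2* by -0.60 and *Hba-x* by -0.97. The embryonic hemoglobin *Hba-x* was at 85.4 and 11.9 against 20.3 and 108 CPM in members, so its groups overlapped. The change was higher in Col9-positive cells for *Kcnb2* by 1.15, *Angpt1* by 0.89, *Prc1* by 0.69, *Tmem132c* by 0.73, *Grm7* by 0.47, *Adam23* by 1.11 and *Frmd5* by 1.53. *Angpt1* was at 178 and 129 against 187 and 281 CPM in members, where its change did not pass the threshold (adjusted p = 0.236, edgeR). The classes were cut on all UMIs, and the causes of these differences, depth among them, were not tested.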

How the results depend on the processing

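The 52 genes of Col9-positive cells became 564 with no low-count filter, 93 with DESeq2, 115 with at least 4 collagen IX UMIs and 208 with sex as a term. They fell to 20 in members with fewer than 2 cell cycle UMIs and to 29 with the highest doublet scores left out. In the latter fits the log2 fold changes of the 52 had a median ratio to the reported ones of 0.959 and 0.995. The fits with sex count male and female members of 1 pool as separate samples, and the fit on libraries of both sexes has 1 library a group, so its 1569 calls compare those libraries and not the genotypes. With total count scaling 12 rose and 53 fell, where the median of all genes was -0.08. Leaving out single libraries gave 69 (without control replicate 2) to 293 genes (without *Ets1* eKO replicate 1), with 246 and 215 without control replicate 1 and *Ets1* eKO replicate 2; the lone sample of an arm is then assumed to vary like the other group. Directions of the 52 were kept wherever a value could be had. That was for 51 of them in members with fewer than 2 cell cycle UMIs and with the rule applied after thinning. Of the 52, 29 passed with the rule applied after thinning and 32 with at least 1 collagen IX UMI (edgeR). Col9-low cells gave 6 genes with DESeq2 and 57 to 334 with a library left out, Tcf21-type cells 5 and 16 to 45, and the difference between classes 133 without the filter and 62 to 117 with a library left out. For Ets1 in Col9-positive cushion cells the change was -0.84 (adjusted p = 0.0951, edgeR) in members with fewer than 2 cell cycle UMIs. It was -0.60 (0.302) with the rule after thinning and -0.93 (0.0502) without high doublet scores. The highest adjusted p of Ets1 over all alternatives was 0.302 (edgeR).

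The replicate numbers did not pair the libraries, with a correlation of -0.08 between the deviations of same-numbered libraries. With a replicate block, 50 genes passed in Col9-positive cells, 37 of them among the 52, 11 in Col9-low and 36 in Tcf21-type cells. The group difference in the share of cushion cells that are Col9-positive was -12.4 points with all UMIs and ran from -2.99 to 0.10 with a library left out, the latter without control replicate 2. For the share of all kept barcodes that are Col9-positive cushion cells it was -4.72 points with all UMIs and -3.84 to -0.64 with a library left out, and for the share of Col9-positive cushion cells with cell cycle UMIs 4.72 to 15.4 points. The cause was not tested in any of these. With 2 libraries a group no exact test can go below 0.3333, and depth limits what can be called for genes with few UMIs.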
